A study of Mus musculus with 10 samples.

Results

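The 5 genes described here, Flt1, Kdr, Flt4, Nrp1 and Nrp2, encode the VEGF receptors and the neuropilins, and they were taken from the 26504 genes in the tables by name, under a rule that used no measured value, with earlier results of these data known. Their transcripts were followed in single endothelial cells (ECs) from the femurs and tibias of Cdh5-mTnG mice on the C57BL/6 background, in which a Cdh5-driven reporter marks endothelium with nuclear GFP and membrane tdTomato. Cells of the haematopoietic lineages were depleted and cells positive for both reporters were sorted, so that the reporter and the sort are common to all groups and cells without Cdh5 activity were to be left out of each of them. The 5 groups were juvenile mice of 3 weeks (both sexes), adult female mice of 12 weeks, aged female mice of 75 weeks, and 12-week-old female mice injected either with parathyroid hormone fragment 1-34 (PTH), which builds bone, or with the bisphosphonate alendronate, which blocks its resorption. Each group was sequenced as 2 libraries made from pooled mice, without a repeat of the experiment. The series names V2 and V3 of the 10x Genomics chemistry, and which library was made with which is not given in the sources used here, so that a chemistry that differs between groups cannot be told apart from age or treatment. The p-values given here therefore measure only the spread between libraries, which may be technical, and a group and the preparation of its libraries cannot be told apart.

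Of 47466 barcodes, 46283 held 500 to 6000 genes and less than 25% mitochondrial UMIs (unique molecular identifiers, 1 per captured transcript), and 44026 of these remained as ECs after haematopoietic, erythroid, mesenchymal and similar cells were removed. The libraries held 10653583 to 28419323 UMIs, with medians of 3075 to 5149 per cell, and any 2 libraries had between 1 and 78 barcodes in common. Clusters of the integrated libraries were named from markers, with the 5 genes held out of the clustering. This gave 17573 bone marrow ECs (bmECs, the sinusoids), 10946 metaphyseal ECs (mpECs, type H capillaries), 9418 arterial ECs (aECs), 4828 remodelling ECs (rECs, type R capillaries), 596 proliferating ECs (pECs) and 665 cells without a name. The named classes held their defining markers, unevenly over libraries in rECs. Stab2 had a median of 1940 UMIs per 1000000 (CPM) in bmECs and at most 473.7 CPM in the other classes, Gja4 1015 CPM in aECs, and Timp4 541.4 CPM in rECs. Timp4 in rECs ran from 68.65 to 1154 CPM over libraries. The mpEC markers were less selective. Aplnr had 1082 CPM in mpECs, 1155 CPM in pECs and 556.3 CPM in rECs, and Ramp3 had 341.3 CPM in mpECs and 301.7 CPM in aECs. PTH replicate 1 stood apart in that its table held no cell under 1180 genes, and both aged libraries in that ribosomal protein genes took a smaller share of their UMIs, with values given beside the aged comparison.

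VEGF receptors are tyrosine kinases that dimerise when a VEGF ligand binds. KDR (VEGFR2) carries most of the growth, survival and permeability signal of VEGF-A in blood vessels, FLT1 (VEGFR1) binds VEGF-A, VEGF-B and placental growth factor tightly with weak kinase activity and acts largely as a trap, and FLT4 (VEGFR3) is the receptor of VEGF-C and VEGF-D, best known from lymphatic vessels and also present in sinusoidal endothelium. Neuropilins have no kinase domain. NRP1 serves as co-receptor for VEGF-A with KDR and for class 3 semaphorins with plexins, and NRP2 does so for VEGF-C with FLT4 and for other semaphorins. In marrow, regrowth of sinusoids after injury depends on KDR, and type H capillaries grow towards VEGF-A from the growth plate.

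On build GRCm38, Flt1 lies on the minus strand of chromosome 5 from 147561604 to 147726011, Kdr on the same strand and chromosome from 75932827 to 75978458, Flt4 on the plus strand of chromosome 11 from 49609263 to 49652739, Nrp1 on the plus strand of chromosome 8 from 128358604 to 128503363 and Nrp2 on the plus strand of chromosome 1 from 62703285 to 62818695. No other gene in the tables overlapped any of them, and 3′ counts do not separate soluble from membrane-bound Flt1. The 250 bases before the RefSeq start (GRCm38.p6) are shown for Flt1 and Nrp1, whose levels went together in these data, and for Flt4, whose level went opposite to both. The gene spans above come from GENCODE, whose starts differ from those of RefSeq. By these spans the stretches shown for Nrp1 and Flt4 lie inside the gene. Capitals mark matches to CCGGAA or AGGAAG or AGGAAA on either strand, the core letters bound by ETS factors. Flt1 (chr5:147726012-147726261, minus strand), Nrp1 (chr8:128358823-128359072, plus strand) and Flt4 (chr11:49609429-49609678, plus strand) read as follows.
Flt1: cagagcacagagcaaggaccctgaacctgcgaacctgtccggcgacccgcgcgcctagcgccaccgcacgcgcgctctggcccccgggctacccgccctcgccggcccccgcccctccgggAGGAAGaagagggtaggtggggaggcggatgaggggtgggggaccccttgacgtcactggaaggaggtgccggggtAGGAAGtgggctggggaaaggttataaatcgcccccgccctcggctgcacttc
Nrp1: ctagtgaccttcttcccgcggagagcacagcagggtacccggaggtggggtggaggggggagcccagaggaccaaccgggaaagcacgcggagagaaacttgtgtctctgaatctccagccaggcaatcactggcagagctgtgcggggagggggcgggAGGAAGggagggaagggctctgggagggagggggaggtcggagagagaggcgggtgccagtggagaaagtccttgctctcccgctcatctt
Flt4: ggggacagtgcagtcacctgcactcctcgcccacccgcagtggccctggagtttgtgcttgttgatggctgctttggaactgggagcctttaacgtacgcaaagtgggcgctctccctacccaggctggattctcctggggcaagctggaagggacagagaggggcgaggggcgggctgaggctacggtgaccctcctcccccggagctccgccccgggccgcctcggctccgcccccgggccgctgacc

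The stretch before Flt1 held 2 ETS matches, that before Nrp1 1 and that before Flt4 none, against at least 1 match in 53.65% of 32851 promoters of the same length. Kdr (chr5:75978456-75978705, minus strand) had 1 and Nrp2 (chr1:62703067-62703316, plus strand) none. The stretches of Kdr and Nrp2 overlap in part with the GENCODE spans given above. Flt1 was the only member with a TATA box (TATAAA, 12.37% of promoters), 31 bases before the start, and with the cyclic AMP response element (tgacgtca, 1.546% of promoters), 81 bases before it. The GC box (GGGCGG, 32.74% of promoters) occurred in all 5, from 1 match in Nrp1 to 5 in Nrp2. The hypoxia response letters (TACGTG or GACGTG or AGCGTG or TGCGTG or GGCGTG, 29.06% of promoters) occurred 2 times each in Kdr and Nrp2. Neither the GATA letters (AGATAA or TGATAA, 16.6% of promoters) nor the SOX letters (ACAAAG or ACAATG or AACAAT, 29.59%) were found in the 250 bases of any member. Both strands were searched for each motif, and a match describes the letters only.

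The first question was how the 5 genes are divided among the vessel types. Flt4 and Kdr were highest in bmECs and next highest in mpECs, with an order of aECs and rECs that rested on how the classes were drawn, Flt1 and Nrp1 were lowest in bmECs, and Nrp2 was lowest in aECs. UMIs were summed per class and library, scaled to CPM with TMM factors, and each class was compared with the mean of the remaining 3 by edgeR's quasi-likelihood test with the library as a block. A gene was called at a Benjamini-Hochberg adjusted p under 0.05 over all 13007 genes tested and an absolute log2 fold change over 1. By this rule 2 of 5 members were called in bmECs (16.2% of all genes), 0 in mpECs (7.35%), 2 in aECs (10.5%) and 1 in rECs (14%). Levels are compared between classes and not between genes.

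Flt4, the VEGF-C receptor, separated the classes most. Its level over the 10 libraries was 537.1 CPM at the lowest, 576.1 at the median and 813.7 at the highest in bmECs, and 242.9, 283.9 and 341.5 CPM in mpECs. It was 89.83, 107.1 and 133.6 CPM in aECs, and 44.77, 72.07 and 92.33 CPM in rECs. The bmEC, mpEC and aEC libraries did not overlap with one another, and the aEC and rEC ranges touched only at their ends. Set against the mean of the others, Flt4 gave a log2 fold change of 2.22 ± 0.057 (SE, n = 10 libraries, adjusted p = 2e-34) in bmECs, −1.12 ± 0.069 (2.3e-19) in aECs and −1.89 ± 0.082 (2e-25) in rECs, all called, and 0.79 ± 0.061 (1.9e-15) in mpECs, under the fold needed. Between bmECs and rECs the log2 difference was 3.08 ± 0.09 (adjusted p = 2.8e-32), between mpECs and aECs 1.43 ± 0.077 and between aECs and rECs 0.58 ± 0.093 (1e-06). The last was not called at the coarser or the finer clustering (0.16 and 0.24) and turned to −0.14 with a marker gate on single cells and −0.04 with only clusters in which all markers were up. Low VEGFR3 is part of the combination by which the study recognises rECs, so its direction there is not independent evidence.

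Kdr, the main signalling receptor, was likewise highest in bmECs, over a narrower span. Its lowest, median and highest levels were 1111, 1247 and 1325 CPM in bmECs and 807.3, 982.6 and 1210 CPM in mpECs. In aECs they were 623.8, 792.7 and 912.6 CPM, and in rECs 358.7, 601.1 and 1026 CPM. Every neighbour in the order bmEC, mpEC, aEC, rEC differed (log2 differences of 0.32, 0.34 and 0.32, adjusted p = 0.0028, 0.002 and 0.0057), although the libraries of neighbouring classes overlapped. The step from aECs to rECs turned under every other way of drawing the classes that was tried, to −0.45 and −0.47 at the coarser and finer clustering, −0.71 with the marker gate, −0.92 with only clusters in which all markers were up and −0.15 without integration, the first 4 of them called with aECs lower. As a log2 fold change Kdr stood at 0.65 ± 0.072 in bmECs and at −0.66 ± 0.081 in rECs (adjusted p = 4.2e-11 and 1.7e-09), both under the fold needed for a call. The rEC value rests on how the class is drawn. It was 0.04 when rECs were picked by a marker gate on single cells and 0.09 when a class kept only the clusters in which each of its markers was up, an alternative chosen after seeing the data. Under the latter the aEC value moved from −0.22 to −1.13.

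Flt1, the trap receptor, was lowest in bmECs, at 410.6, 471.1 and 710.6 CPM (lowest, median and highest library). It stood at 749.5, 835.7 and 1149 CPM in mpECs, 945.1, 1021 and 1322 CPM in aECs, and 734.3, 961.1 and 1799 CPM in rECs. No bmEC library reached the level of any mpEC, aEC or rEC library. Flt1 in bmECs gave a log2 fold change of −1.03 ± 0.076 (adjusted p = 6.7e-17), just past the fold of a call, and 4 alternatives put it at −0.78 to −0.97. It was 0.44 ± 0.07 in aECs, 0.45 ± 0.072 in rECs and 0.14 ± 0.071 (adjusted p = 0.099) in mpECs. The aEC and rEC levels did not differ from each other by this test (log2 difference −0.01 ± 0.089, adjusted p = 0.96), while with the 5 other ways of drawing the classes aECs were lower (−0.31 to −0.63, all called), and the aEC value was −0.01 when only clusters with all markers up were kept.

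Nrp1, the VEGF-A and semaphorin co-receptor, was distributed as Flt1 was. It measured 362.6, 438.7 and 538.3 CPM in bmECs, 505.3, 693.3 and 1126 CPM in mpECs, 754.6, 822.8 and 1070 CPM in aECs, and 588.0, 867.5 and 1348 CPM in rECs. The bmEC log2 fold change of −0.91 ± 0.074 (adjusted p = 1.8e-15) fell short of a call and reached −1.02 to −1.06 under 3 alternatives. In aECs and rECs it was 0.41 in both (adjusted p = 1.6e-06 and 2.9e-06), with no difference found between the 2 classes (0.00 ± 0.088, adjusted p = 0.99, but −0.33 with the marker gate and −0.58 with only clusters in which all markers were up, both called), and in mpECs 0.09 (0.3).

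Nrp2, the partner of FLT4, shared only a part of the Flt4 pattern. It was 162.7, 219.3 and 432.7 CPM in bmECs and 180.1, 218.6 and 447.4 CPM in mpECs, and these 2 classes did not differ by the test (−0.05 ± 0.062, adjusted p = 0.49). It was 70.35, 91.35 and 138.1 CPM in aECs and 92.39, 159.7 and 268.6 CPM in rECs. All aEC libraries lay below all bmEC and mpEC libraries, and the log2 fold change in aECs was −1.19 ± 0.058 (adjusted p = 4e-23), a call. The rEC level exceeded that of aECs by 0.83 ± 0.073 on the log2 scale (1.4e-13). Flt4 went the other way by the same test, but its step rested on how the classes were drawn. Over all 6 pairs of the 4 classes, 27 of 30 member tests passed an adjusted p under 0.05 (23 to 27 with 1 library left out), where of all genes 53.2% did between bmECs and mpECs, 65.3% between bmECs and aECs, 60.2% between bmECs and rECs, 45.9% between mpECs and aECs, 47.8% between mpECs and rECs and 36.2% between aECs and rECs. The calls of Flt1 and Nrp1 in mpECs against aECs and against rECs were each lost without some library. Flt1 in mpECs less aECs (−0.22) also turned under the other ways of drawing the classes (0.03 to 0.35). In pECs, summed in 9 libraries, the medians lay between those of the other classes for Flt1 (648.2 CPM), Kdr (749), Flt4 (249.5), Nrp1 (557) and Nrp2 (167.6).

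**Figure D1:**
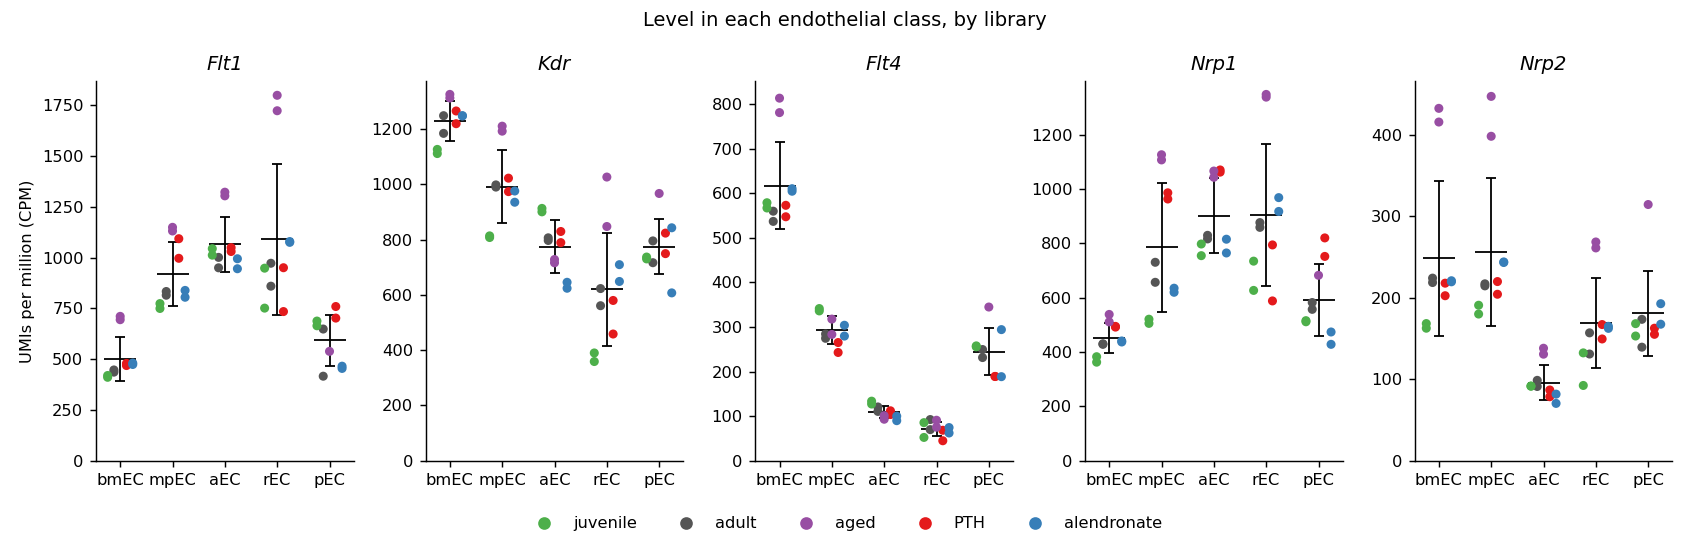
Level of each gene in UMIs per 1000000 (vertical axis) in the 5 endothelial classes (horizontal axis). Each point is 1 library, coloured by group, and the bars give the mean and SD over libraries. Flt4 has a median of 576.1 CPM in bmECs and 72.07 CPM in rECs, Flt1 and Nrp1 are lowest in bmECs, and Nrp2 is lowest in aECs (91.35 CPM). The aged libraries are the highest points for Flt1 in bmECs, mpECs, aECs and rECs.

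Within aECs and rECs the members differed between clusters, given here without a test since clusters and levels come from the same cells. The aECs were held mainly by cluster 1 (5004 cells, all 5 arterial markers up) and cluster 3 (4330 cells, 3 of the 5 up, with Gja4, Rbp7 and the mpEC marker Ramp3 among its leading genes). Its mean marker score was 1.592 for aECs and 1.004 for mpECs, and the clusters led by the same genes at the coarser (6493 cells) and finer clustering (4219 cells) took no name. Kdr had a median of 402.2 CPM in the first and 1085 CPM in the second, a median log2 ratio of 1.36 with the same direction in 10 of 10 libraries. Nrp2 was likewise at 32.81 and 131.5 CPM (1.94, 10 of 10), and Flt1 and Flt4 were also higher in cluster 3 in 10 of 10 libraries (0.58 and 0.86). Nrp1 was higher there in 9 of 10 (0.23). The Kdr median of cluster 3 lay beside those of bmEC clusters 0, 5 and 7 (1105, 1036 and 1072 CPM). The smaller bmEC cluster 13 had 916.2 CPM and the shallow bmEC cluster 8 had 1433 CPM, all without TMM factors. A further small cluster, 15 (84 cells, all 5 markers up), had 992.0 CPM of Kdr and 117.1 CPM of Nrp2 in the 1 library in which it was summed. Its mean marker score was 2.71 for aECs and 1.103 for bmECs. It was deep (median of 6312 UMIs, against 3029 in cluster 1) and had 345.0 CPM of Flt4, against a median of 69.92 CPM in cluster 1. Whether it holds doublets (2 cells read as 1) was not tested. Of the rECs, cluster 6 (2961 cells, all 5 markers up) held 785.4 CPM of Kdr and 1179 CPM of Nrp1, and cluster 10 (1867 cells, 3 markers up, with Tagln and Vwf) 375.3 and 520.2 CPM. Neither Timp4 nor Aqp7 was among the 10 highest genes of cluster 10, which made up 27.2 to 75.8% of the rECs of a library. Kdr, Nrp1 and Flt1 were higher in cluster 6 in 10 of 10 libraries (median log2 ratios of 1.12, 1.17 and 0.61). Nrp2 was lower there in all 10 (−0.52), and Flt4 was higher in 5 of 10 (0.17). In the 2 largest mpEC clusters, Kdr and Flt4 were higher in cluster 4 than in cluster 2 in 8 and 9 of 10 libraries (0.22 and 0.36). Nrp1 was higher in cluster 4 in 1 of 10 (−0.27). Cluster 4 (4205 cells, 4 of the 5 mpEC markers up, led by Cxcl10 and Cxcl9) had a mean marker score of 0.895 for mpECs, against 2.551 in cluster 2. The shallow mpEC cluster 9 (2072 cells, median of 1211 UMIs, summed in 9 libraries) had higher medians than cluster 2 for Flt1 (1502 against 821.9 CPM), Kdr (1320 against 882.3), Flt4 (342.6 against 254.1), Nrp1 (1138 against 781.1) and Nrp2 (351.8 against 212.1). This was not particular to mpECs. The shallow bmEC cluster 8 (2370 cells, median of 1431 UMIs) lay above bmEC cluster 0 for all 5 members. The medians were 643.9 against 410.1 CPM for Flt1, 1433 against 1105 for Kdr and 637.8 against 515.2 for Flt4. For Nrp1 they were 578.1 against 389.6 CPM and for Nrp2 252.5 against 194.6. Both shallow clusters were led by Gm10800, Gm10801 and Gm21738.

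**Figure D2:**
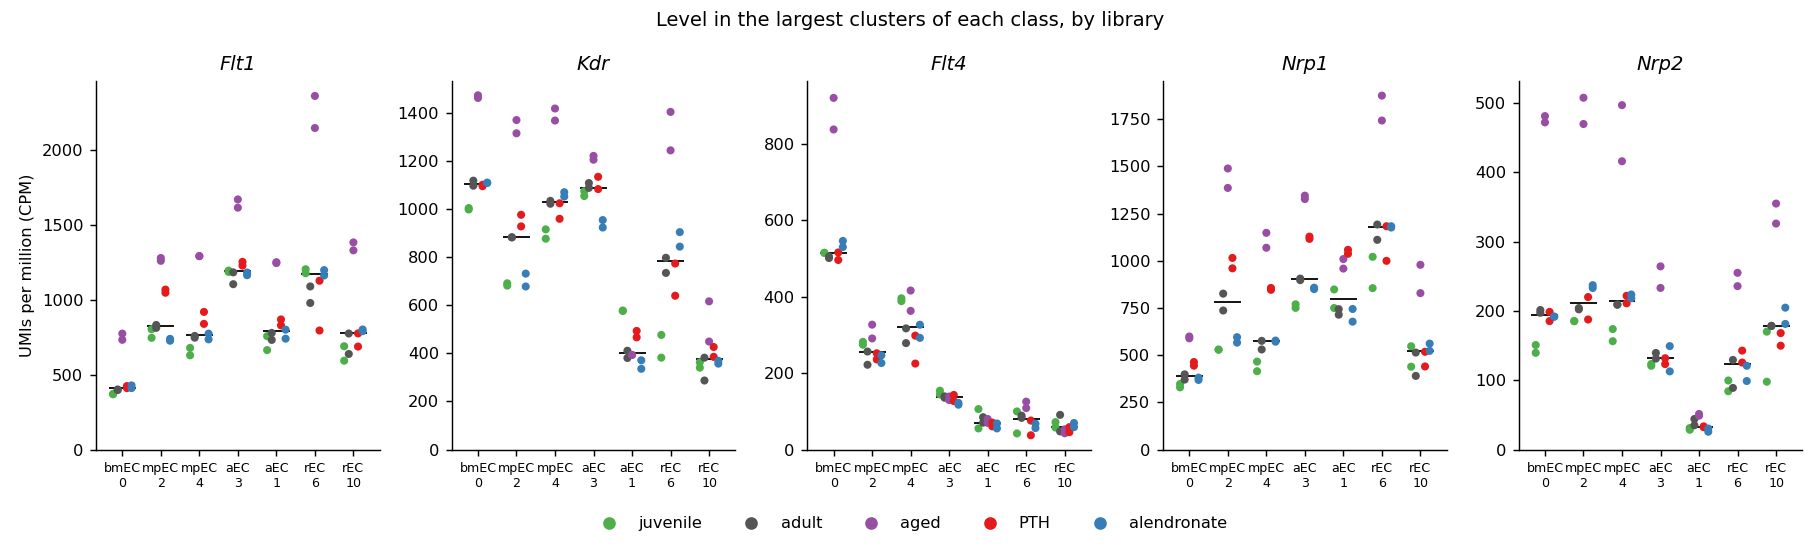
Level of each gene (UMIs per 1000000 of the plain total, without TMM factors) in the largest clusters of each class, by library, with a line at the median of the 10 libraries. Kdr and Nrp2 divide aEC cluster 3 from aEC cluster 1 (Kdr medians 1085 and 402.2 CPM), and Nrp1 divides rEC cluster 6 from rEC cluster 10 (1179 and 520.2 CPM). Since the plain total is used, the aged points lie higher here than with TMM factors.

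Single cells were then asked how often they carry the transcripts at equal depth, each cell thinned to 1000 UMIs and shallower cells left out (469 bmECs, 678 mpECs, 312 aECs, 391 rECs and 24 haematopoietic cells). Haematopoietic cells of the same libraries served as background, although some of them are known to make Flt1 and neuropilins. A Flt4 UMI was found in a median of 39.22% of bmECs per library, 25.4% of mpECs, 9.687% of aECs and 6.737% of rECs, with 2.851% in haematopoietic cells. The pooled shares of aECs (9.532%, exact 95% interval 8.94 to 10.2) and rECs (6.897%, 6.17 to 7.68) lay above the pooled haematopoietic share (2.853%, 2.03 to 3.89). These intervals cover counting error only. Median depth per library was 3225 to 7408 UMIs in bmECs, 2830 to 4970 in aECs, 1844 to 3863 in rECs and 2867 to 9560 in haematopoietic cells. Without thinning, the Flt4 medians were 79.61% in bmECs, 58.47% in mpECs, 30.13% in aECs, 15.05% in rECs and 15.65% in haematopoietic cells, the last from deeper cells than rECs.

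Kdr was the most evenly spread of the receptors among cells, with medians of 65.63% of bmECs, 60.1% of mpECs, 47.02% of aECs, 42.12% of rECs and 8.096% of haematopoietic cells. Cells with both Kdr and Flt4 made up 26.27% of bmECs (24.02 to 43.52% over libraries), 16.65% of mpECs (13.18 to 20.98%), 5.962% of aECs (3.488 to 6.86%) and 3.111% of rECs (0 to 5.938%). The bmEC and mpEC ranges did not overlap with each other or with those of aECs and rECs. Flt1 and Nrp1 were met less often in bmECs (32.78% and 32.56%) than in mpECs (53.17% and 47.06%), aECs (59.03% and 53.81%) and rECs (59.53% and 54.01%), with 5.432% and 5.011% in haematopoietic cells, so that bmECs were lowest by share as by summed level. Nrp2 was found in 17.97% of bmECs, 20.21% of mpECs, 7.604% of aECs and 12.65% of rECs, with 1.495% in haematopoietic cells.

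**Figure D3:**
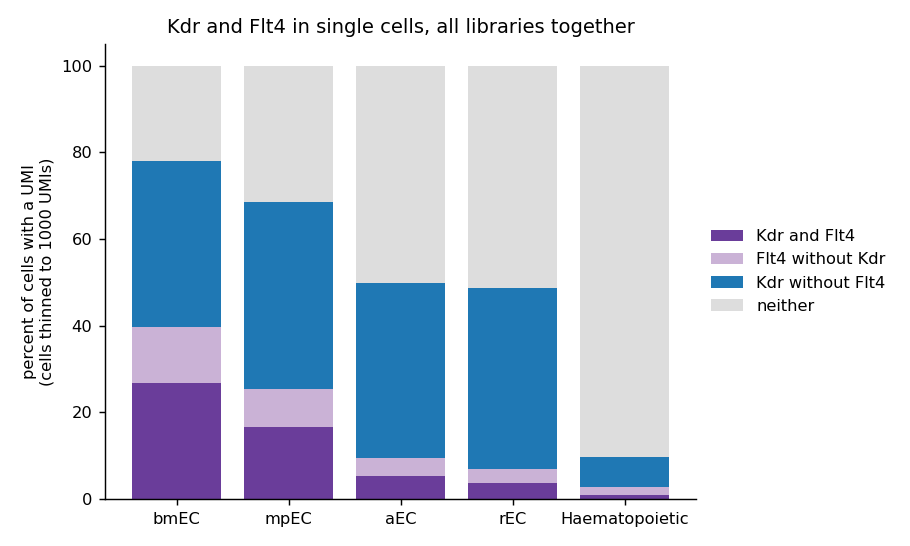
Share of cells (percent, cells of all libraries together, each thinned to 1000 UMIs) with a UMI of Kdr and Flt4, of one of them or of neither, in the 4 classes and in haematopoietic cells. Cells with both are 26.64% of bmECs, 16.66% of mpECs, 5.227% of aECs, 3.651% of rECs and 0.9009% of haematopoietic cells.

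The next question was how these levels differed with age and treatment within a class. Each group was compared with the adult libraries in a fit over all groups, and a gene was called at an adjusted p under 0.05 over all genes tested in the class. TMM factors were set anew within each class, so levels by group lie on another scale than those set across classes. In aged mice 17 of 20 member tests were called (15 higher, 2 lower), where 65.8% of all genes were called in bmECs, 64.3% in mpECs, 63% in aECs and 48% in rECs. Most genes of 3 of the classes were called as well, so the count says little about the members. Flt1, Nrp1 and Nrp2 rose in all 4 classes, Flt4 rose in bmECs, and Kdr rose in mpECs and rECs.

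Nrp2 rose with age in each class. In bmECs it went from 212.8 and 208.5 CPM in the adult libraries to 368.9 and 385.3 CPM in the aged ones, and in mpECs from 220.2 and 217.1 to 446.9 and 396.5 CPM. In aECs it went from 100.9 and 92.98 to 139.5 and 133.3 CPM, and in rECs from 130.5 and 156.1 to 264.2 and 271.4 CPM. In each class both aged libraries lay above both adult ones, with log2 fold changes of 0.84 ± 0.047 (adjusted p = 6.3e-18), 0.95 ± 0.064 (1e-15), 0.49 ± 0.083 (4.2e-06) and 0.91 ± 0.123 (7.5e-07). At equal depth 40.43 and 40.98% of aged bmECs carried Nrp2, against 18.77 and 17.51% of adult bmECs.

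Flt1 rose from 424.0 and 415.4 to 615.7 and 632.7 CPM in bmECs, and from 856.5 and 966.6 to 1742 and 1818 CPM in rECs. The rEC change of 0.97 ± 0.1 (adjusted p = 6.9e-09) stood beside those of bmECs (0.57 ± 0.039), mpECs (0.45 ± 0.05) and aECs (0.42 ± 0.047). Its difference from bmECs was 0.29 by the direct test, with the call lost at 0.17 without adult replicate 1 and at 0.11 with total UMIs. Nrp1 rose from 740.2 and 663.7 to 1106 and 1121 CPM in mpECs (0.66 ± 0.051, 3.4e-14) and from 873.5 and 853.8 to 1363 and 1351 CPM in rECs (0.65 ± 0.098, 3.5e-06). Its changes in aECs (0.35 ± 0.047) and bmECs (0.19 ± 0.042, 0.00014) were smaller. The aged and adult libraries did not overlap for Flt1 or Nrp1 in any of the 4 classes.

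The lymphatic-type receptor Flt4 rose in aged bmECs from 531.6 and 511.7 to 721.7 and 695.6 CPM (0.44 ± 0.038, adjusted p = 1.7e-12). In mpECs (0.08 ± 0.065, 0.27) and rECs (0.06 ± 0.185, 0.81) no change passed the test. In aECs it was called lower, from 113.1 and 123.1 to 102.1 and 94.85 CPM (−0.26 ± 0.083, 0.0066), but the call was lost without adult replicate 2 (−0.21) or aged replicate 2 (−0.19), and other definitions of the class gave 0.97 (no integration) and 0.08 (marker gate). Without integration, a cluster of 2718 cells led by Cd74 and Gm10800 was also named aEC, with all 5 arterial markers up. Its mean marker score was 2.435 for aECs and 0.9116 for mpECs, and too few aged mpECs remained there to be fitted. The part of this other mix of cells in the 0.97 was not tested. Cells with both Kdr and Flt4 were 41.08 and 43.52% of aged bmECs against 25.73 and 24.86% of adult ones.

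Kdr in aged bmECs, at 1164 and 1180 CPM, overlapped with the adult 1184 and 1128 CPM (0.02 ± 0.035, adjusted p = 0.64). It rose in mpECs (1011 and 1001 to 1191 and 1204 CPM, 0.25 ± 0.047, 1.4e-05) and in rECs (558.8 and 619.0 to 1037 and 855.8 CPM, 0.69 ± 0.104, 4.2e-06). In aECs it was called lower (814.7 and 822.5 to 722.9 and 741.7 CPM, −0.16 ± 0.048, 0.004), and again other class definitions gave 1.04 (no integration, with the mix of cells described for Flt4) and 0.32 (marker gate). Cluster 3, the Kdr-rich part of the aECs, made up 52.1 and 55.6% of adult but 40.6 and 43.0% of aged aECs. Per plain total, Kdr was 1221 and 1205 CPM in aged and 1088 and 1108 CPM in adult cells of cluster 3, and 393.0 and 393.6 against 410.8 and 380.5 CPM in cluster 1.

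These aged values are relative to the bulk of genes. Scaled by total UMIs alone, an alternative chosen after seeing the data, the median gene of the aged libraries lay above adult by 0.43 in bmECs, 0.25 in mpECs, 0.12 in aECs, 0.11 in rECs and 0.36 over all ECs on the log2 scale, and it lay within 0.052 of adult in juvenile, PTH and alendronate libraries. With that scaling Kdr in bmECs (0.43) and Flt4 in mpECs (0.33) were called higher, and the lower calls of Flt4 (−0.12) and Kdr (−0.02) in aECs were lost. All other aged calls kept their direction. Ribosomal protein genes took 8.31 to 8.37% of the UMIs of aged bmECs against 16 to 16.4% in adult ones, 8.16 to 8.5 against 13.5 to 13.8% in mpECs, 8.34 to 8.51 against 11.1 to 11.2% in aECs and 9.06 to 9.14 against 12.5 to 12.7% in rECs. The aged libraries also had a higher mitochondrial share (2.40 and 2.45% of UMIs, against 1.25 to 1.55% in the others) and were the ones with UMIs of genes starting with U (1.52 and 1.53%). The part of these in the member values was not tested. Thinned shares rest on total UMIs and carry the same difference.

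Juvenile mice differed from adults mostly by lower levels. They were of both sexes and the adults female, so sex cannot be told apart from age here. Of 20 tests 9 were called (7 lower, 2 higher), with 37.1% of all genes called in bmECs, 26.4% in mpECs, 19% in aECs and 3.59% in rECs. Nrp1 was lower in bmECs (365.7 and 346.7 CPM against 406.5 and 410.0, −0.20 ± 0.04) and mpECs (533.2 and 514.8 against 740.2 and 663.7, −0.42 ± 0.052, adjusted p = 3.2e-08). Nrp2 was lower in bmECs (155.5 and 161.0 against 212.8 and 208.5 CPM, −0.41 ± 0.047, 5e-09) and mpECs (−0.21 ± 0.067, 0.018). The mpEC value of Nrp2 lost its call without juvenile replicate 1, adult replicate 1 or adult replicate 2 (−0.17 to −0.22).

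Among the receptors Kdr was lower in juvenile mpECs (832.6 and 822.4 against 1011 and 1001 CPM, −0.28 ± 0.047, adjusted p = 1e-05) and Flt4 higher there (349.7 and 342.5 against 288.3 and 277.7 CPM, 0.29 ± 0.063, 0.00045). Without integration the Flt4 value was −0.09 and not called. In rECs Kdr was 366.0 and 393.6 CPM against 558.8 and 619.0 CPM (−0.63 ± 0.148, 0.011). These were sums of 76 to 80 juvenile rECs, and the call was lost without either juvenile replicate or adult replicate 2 (−0.58 to −0.70). Cluster 10, the Kdr-poor part of the rECs, made up 37.5 and 59.2% of juvenile rECs and 30 and 33.5% of adult ones. Inside cluster 6 Kdr was 382.0 and 476.5 CPM in juvenile against 734.4 and 797.3 CPM in adult libraries, and inside cluster 10 it was 340.3 and 362.8 against 286.9 and 381.9 CPM, per plain total. Kdr changed by −0.11 ± 0.034 in bmECs and by 0.18 ± 0.05 in aECs, both lost without juvenile replicate 1 or adult replicate 1 (−0.08 to −0.10 and 0.17). Cluster 3, the Kdr-rich part of the aECs, made up 64.1 and 62.1% of juvenile aECs against 52.1 and 55.6% of adult ones. Inside cluster 3 Kdr was 1074 and 1054 CPM in juvenile against 1088 and 1108 CPM in adult libraries, and inside cluster 1 it was 576.1 and 578.1 against 410.8 and 380.5 CPM, per plain total. No change of Flt1 passed the test in juvenile mice in any class.

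After PTH 4 of 20 tests were called, all higher, against 8.73% of all genes in bmECs, 16.6% in mpECs, 10.6% in aECs and 5.82% in rECs. Nrp1 accounted for 3 of the 4. It rose from 740.2 and 663.7 to 974.7 and 999.7 CPM in mpECs (0.49 ± 0.05, adjusted p = 8.1e-10), from 834.7 and 846.2 to 1086 and 1090 CPM in aECs (0.37 ± 0.048, 3.3e-07) and from 406.5 and 410.0 to 463.8 and 462.6 CPM in bmECs (0.18 ± 0.042, 0.0028), the last call lost without PTH replicate 2 (0.18). Flt1 rose in mpECs (844.4 and 823.7 to 1009 and 1108 CPM, 0.35 ± 0.049, 8.6e-07). The libraries did not overlap in any of these 4. Nrp1 differed between mpEC clusters (medians of 781.1 CPM in cluster 2, 576.5 in cluster 4 and 1138 in the shallow cluster 9, per plain total). The part of a changed mix of these clusters in the mpEC values was not tested, here or in juvenile and aged mice.

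In rECs Nrp1 read 584.6 and 768.0 CPM after PTH against 873.5 and 853.8 CPM, which missed the threshold (−0.32 ± 0.103, adjusted p = 0.06), was −0.16 without PTH replicate 1, the library that held no cell under 1180 genes, and was called without PTH replicate 2 (−0.56, 0.0018). Cluster 10, the part of the rECs with less Nrp1, made up 75.8 and 53.3% of rECs after PTH and 30 and 33.5% in adults. Inside cluster 6 Nrp1 was 999.6 and 1183 CPM after PTH and 1192 and 1111 CPM in adults, and inside cluster 10 it was 440.0 and 517.7 against 390.0 and 513.7 CPM, all per plain total, so that the libraries overlapped in both clusters. Kdr, Flt4 and Nrp2 passed the test in no class after PTH.

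Alendronate gave 5 calls of 20 (4 lower, 1 higher), against 17.6% of all genes in bmECs, 11.9% in mpECs, 12.6% in aECs and 2.75% in rECs. The aECs held 3 of them. Kdr fell from 814.7 and 822.5 to 649.1 and 628.8 CPM (−0.36 ± 0.048, adjusted p = 9.7e-07), Flt4 from 113.1 and 123.1 to 90.36 and 100.7 CPM (−0.30 ± 0.083, 0.011) and Nrp2 from 100.9 and 92.98 to 70.77 and 82.40 CPM (−0.34 ± 0.09, 0.0085). The groups did not overlap for any of the 3. The Flt4 call was lost without adult replicate 2 or alendronate replicate 1 (−0.24 and −0.23), and the Nrp2 call without adult replicate 1 or alendronate replicate 1 (−0.28 and −0.24).

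Cluster 3 was a smaller part of the aECs after alendronate (38.8 and 36.1%, against 52.1 and 55.6% in adults), and none of the 3 aEC calls held with the marker gate (Kdr 0.02, Flt4 −0.27, Nrp2 −0.21) or without integration (−0.11, −0.28 and −0.11). Inside cluster 3 Kdr was 923.2 and 954.1 CPM after alendronate against 1088 and 1108 CPM, and inside cluster 1 371.0 and 335.6 against 410.8 and 380.5 CPM, per plain total. Both pairs lay below the adult pair in each cluster. The remaining calls were small, Flt4 higher in bmECs (0.13 ± 0.037, 0.0097, lost without adult or alendronate replicate 2) and Nrp1 lower in mpECs (−0.15 ± 0.052, 0.044, lost in 5 of the settings that leave out a library). No member passed the test in rECs after alendronate.

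**Figure D4:**
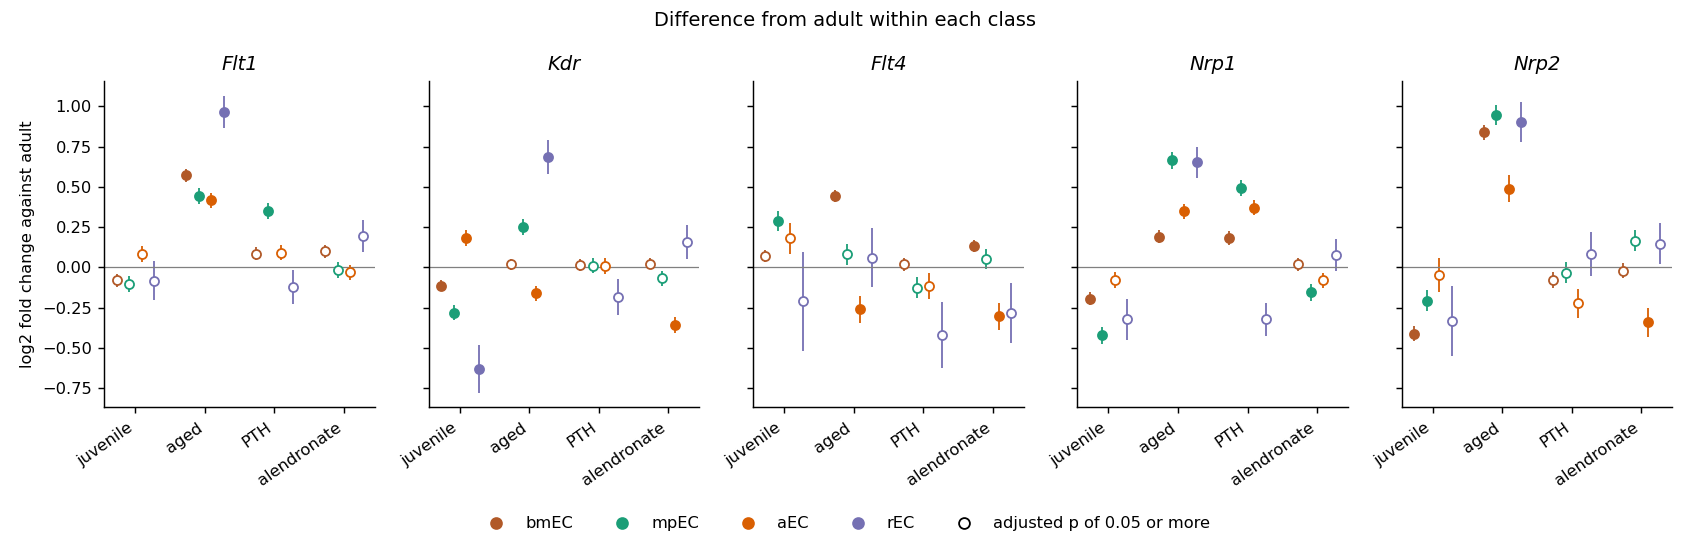
Fitted log2 fold change against adult (vertical axis, with SE) of each gene in juvenile, aged, PTH and alendronate mice (horizontal axis) within each of the 4 classes. Filled points passed an adjusted p of 0.05. Aged points of Flt1, Nrp1 and Nrp2 lie above 0 in all 4 classes, while the aged aEC points of Flt4 (−0.26) and Kdr (−0.16) lie below 0. Both of these calls are lost with total UMIs (−0.12 and −0.02). Both values are above 0 without integration and with the marker gate, which draw the aECs from another set of cells.

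Over all ECs of a library, as a sort of the whole endothelium would measure them, class shares, RNA per cell and class levels all enter. The bmEC share of ECs was 55.7 to 56.1% in juvenile, 49.5 to 49.7% in adult, 20.6 to 21% in aged, 25.6 to 31.2% in PTH-treated and 37.2 to 38.7% in alendronate-treated mice. Flt4, the gene most tied to bmECs, went the same way for the juvenile and PTH groups. It was 436.6 and 440.6 CPM in juvenile, 367.4 and 357.9 in adult, 267.8 and 273.2 after PTH and 332.2 and 333.8 CPM after alendronate (log2 fold changes of 0.27, −0.42 and −0.12 against adult, adjusted p = 1.7e-05, 1.5e-07 and 0.031). In aged mice it was 324.8 and 295.5 CPM (−0.23 ± 0.041), while rising within bmECs, and with total UMIs the aged value was 0.12 and Kdr, at −0.11, became 0.23.

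Flt1 was 0.69 ± 0.037 higher in aged, 0.39 ± 0.037 higher after PTH and 0.15 ± 0.037 higher after alendronate, and Nrp1 0.59 ± 0.034 higher in aged and 0.51 ± 0.034 higher after PTH. Juvenile ECs held less of both (−0.15 and −0.35). Nrp2 was 0.59 ± 0.039 higher in aged ECs and lower in juvenile (−0.21) and PTH-treated ECs (−0.17). The calls were 4 of 5 in juvenile (43% of all genes), 5 of 5 in aged (73.4%), 5 of 5 after PTH (29.5%) and 3 of 5 after alendronate (27.3%). After alendronate the Flt1 call was lost without adult replicate 2 (0.13) and the Flt4 call in 4 settings that leave out a library (−0.10 to −0.14). Kdr, the third gene called after alendronate, was lower and ran from −0.16 to −0.12 over these settings. The small Kdr changes were lost without adult replicate 1 after PTH (−0.09) and without aged replicate 2 in aged mice (−0.09).

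**Figure D5:**
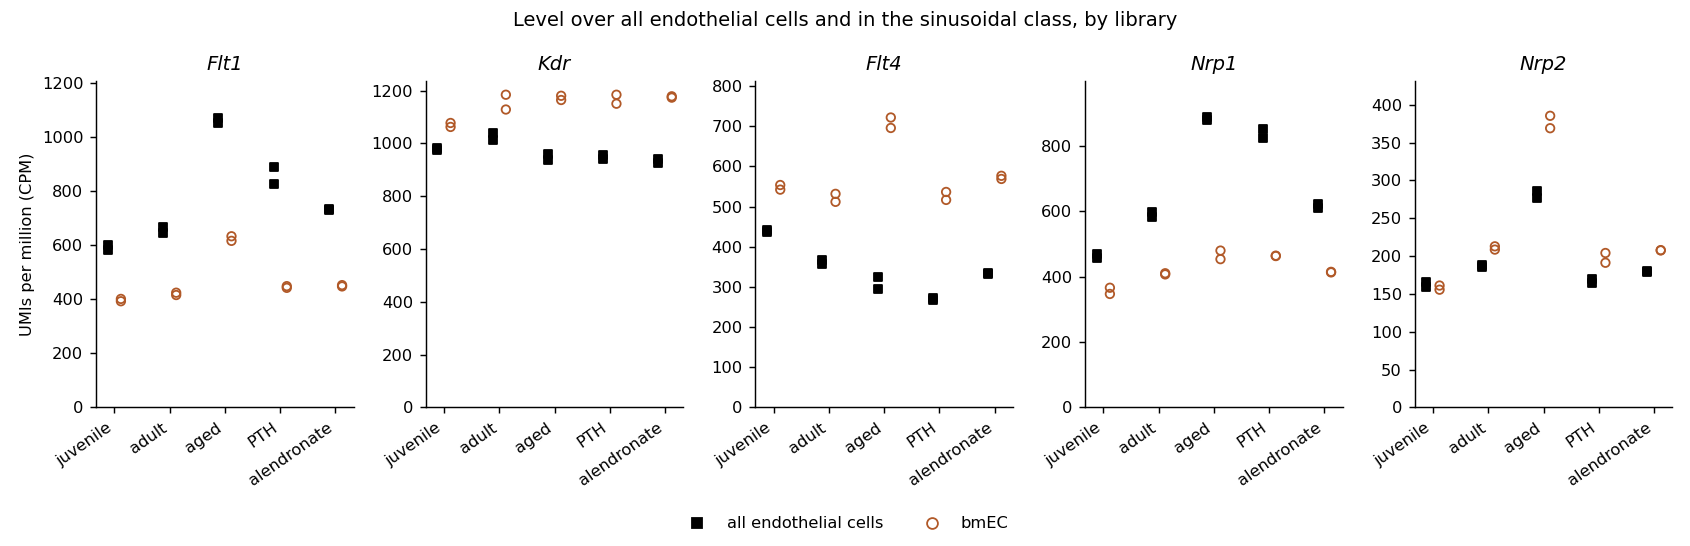
Level of each gene in UMIs per 1000000 (vertical axis) over all ECs (black squares) and in bmECs alone (open circles), 1 point per library and group (horizontal axis). Flt4 over all ECs is lower in aged mice (324.8 and 295.5 CPM) than in adults (367.4 and 357.9 CPM), while in bmECs it is higher (721.7 and 695.6 CPM against 531.6 and 511.7 CPM). The direction over all ECs turns with total-UMI scaling.

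Whether an age or treatment effect differed between classes was tested directly, as the effect in mpECs, aECs or rECs less that in bmECs, by edgeR's quasi-likelihood test with the library as a block. Of 60 such tests 17 were called (7 higher, 10 lower), 10 of 15 for aged mice, where 9.51% (mpECs), 18.9% (aECs) and 10.4% (rECs) of all genes were called. For Flt4 the aged change was lower in mpECs (−0.43 ± 0.08, adjusted p = 4.5e-05) and aECs (−0.76 ± 0.096, 1.7e-09) than in bmECs. Within the classes Flt4 was called higher in aged bmECs and lower in aged aECs, and no change passed the test in mpECs. The aged change of Nrp1 was larger in mpECs (0.41 ± 0.072, 1.7e-05), that of Kdr larger in rECs (0.56 ± 0.084, 2.9e-07) and that of Nrp2 smaller in aECs (−0.40 ± 0.097, 0.0011). These aged differences kept their call at the finer clustering, with total UMIs, with only clusters in which all markers were up and without each library in turn. They were not run without integration or with the marker gate, where the aged effect on Flt4 in aECs itself was 0.97 and 0.08. PTH gave 3 calls of 15 (4.57, 2.65 and 3.09% of all genes in the same order), among them Nrp1 in mpECs (0.31 ± 0.072, 0.0022) and rECs (−0.46 ± 0.084, 0.00011). The former was lost without adult replicate 2 (0.21), the latter ran from −0.30 without PTH replicate 1 to −0.73 without PTH replicate 2, and both were lost with only clusters in which all markers were up (0.15 and −0.23). Juvenile mice and alendronate gave 2 calls of 15 each (5.31, 5.5 and 2.71% of all genes in juvenile mice and 0.633, 2.91 and 1.14% after alendronate), with Kdr in juvenile aECs (0.30) and rECs (−0.55) and Kdr and Flt4 in alendronate aECs (−0.36 and −0.42). Of these, the calls of Kdr in juvenile mice and of Flt4 after alendronate were lost when single libraries were left out (0.24 to 0.28 without juvenile or adult replicate 1 in aECs, −0.43 to −0.60 without either juvenile replicate or adult replicate 2 in rECs, −0.34 and −0.36 without adult replicate 2 and alendronate replicate 1).

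The rest of the pathway was read from lists of ligands, semaphorins and plexins, membrane partners, signalling proteins and VEGF-induced genes. Among the 5 ligands, bmECs were higher in 2 and lower in 3, with a median log2 fold change of −1.70 against 0.01 over all genes, of which 16.2% were called in bmECs. Vegfa, the ligand of KDR and FLT1, was 2.40 ± 0.104 higher in bmECs (median 31.17 CPM) and fell by 2.38 in rECs (3.856 CPM). Vegfb was 1.49 higher in bmECs. Vegfc, the ligand of FLT4, was 3.24 ± 0.102 higher in aECs (250.7 CPM) and 3.26 lower than the other classes in bmECs (8.23 CPM), so the class richest in Flt4 held the least Vegfc transcript. Pgf, the FLT1 ligand, was higher in mpECs (2.43) and rECs (2.82), with medians of 18.21 and 10.92 CPM.

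Of the 7 semaphorins and plexins tested, 1 was called in bmECs, Sema3a, the ligand of NRP1 (4.07 ± 0.125, 271.8 CPM against 10.07 CPM in aECs), and it was called lower in aECs (−2.20) and rECs (−2.22). Of 17 membrane partners, 1 was higher and 3 lower in bmECs and 3 were higher in aECs, beside 16.2% and 10.5% of all genes called in these classes in either direction. The aEC calls were Efnb2, which drives VEGF receptor uptake (2.88), the phosphatase Ptprj (3.88) and the integrin subunit Itgb3 (2.22). Of 10 tested VEGF-induced genes, 6 were lower in bmECs (median −1.04), among them Esm1 (−3.53) and the Notch ligand Dll4 (−1.06), and in aECs 4 were higher, with Dll4 at 1.39 and Esm1 at 1.87, and 1 lower, the TIE2 ligand Angpt2 (−3.20). In rECs 4 were higher and 1 lower, with Angpt2 2.22 higher and the potassium channel subunit Kcne3 at −2.47. Nos3, the endothelial nitric oxide synthase, was higher in both aECs (1.02) and rECs (1.04) and lower in bmECs (−1.84). Signalling genes were called lower in 3 of 17 in bmECs and higher in 3 of 17 in aECs and 2 of 17 in rECs, shares near those of all genes (16.2%, 10.5% and 14% in either direction).

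With age the semaphorin and plexin list rose in 6 of 7 tested genes in bmECs (median 0.87), 6 of 7 in mpECs (0.68), 5 of 6 in aECs (0.52) and 4 of 6 in rECs (0.78), where the median of all genes lay between −0.02 and 0.01. Of all genes, 65.8% were called in either direction in bmECs, 64.3% in mpECs, 63% in aECs and 48% in rECs, so these counts say little about the list. Among the plexins, which partner the neuropilins, Plxna4 changed by 2.02, 1.94, 2.32 and 1.99 and Plxnd1 by 0.66, 0.68, 0.31 and 0.67 in bmECs, mpECs, aECs and rECs. Sema3a was called higher in bmECs (0.87) and mpECs (0.53) and lower in aECs (−2.02). Its level over libraries was only 2.227 to 24.46 CPM in aECs, against 155.2 to 335.2 CPM in bmECs. Sema3d, at no more than 4.987 CPM in any bmEC library, ranked first by size of change in bmECs. Vegfa rose in aged bmECs (1.61), mpECs (1.22) and aECs (1.51), and Vegfc fell by 1.66 in bmECs, by 0.71 in mpECs and by 0.48 in rECs and rose by 0.31 in aECs. Ptprb, the phosphatase that dampens KDR and TIE2, rose in all 4 classes (1.04, 0.74, 0.87 and 1.1). After PTH, Efnb2 rose in bmECs (0.76), mpECs (0.77) and aECs (0.54), and Vegfc in mpECs (0.93) and aECs (0.51). The other ligands called in mpECs, Pgf (−1.06) and Vegfa (−0.83), were lower, and Vegfa was higher in bmECs (0.43). After alendronate, Sema3a rose in bmECs (0.77) and mpECs (1.14), and the immediate-early gene Nr4a1 rose in all 4 classes (0.75 to 1.91).

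Across the 49 sums of class and library, Flt1 went with Nrp1 and Kdr with Flt4, and Flt4 went against Flt1 and Nrp1 more than Kdr did. Pearson's r of log2 levels was 0.92 between Flt1 and Nrp1 and 0.80 between Kdr and Flt4, while Flt4 had an r of −0.66 with Flt1 and with Nrp1. Kdr had an r of −0.27 with Flt1 and −0.23 with Nrp1. Nrp2 stood nearer to Kdr (0.60) and Flt4 (0.60) than to Nrp1 (−0.15). The sums share libraries and depth, so these values describe the tables and carry no test. Of 6717 genes, those most like Flt1 were Arhgef15 (0.93), Etl4 (0.92) and Nrp1 itself, and those most like Nrp1 were Etl4 (0.93), Flt1 and Tbx3 (0.90). Map4k5 (0.97) and the sinusoidal scavenger receptor Stab1 (0.96) were most like Flt4. Mtm1 (0.88) and Vav3 (0.86) were most like Kdr, and Smad1 (0.89) and Nrip1 (0.86) most like Nrp2.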

How the data were processed

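Tables of raw UMI counts per gene and cell were made by the authors, who per the labels used UMI-tools 1.1.2, STAR 2.7.10a, featureCounts 2.0.3 and mm10, and were deposited without normalization. The annotation release and which library had 10x chemistry V2 or V3 are not given in the sources used here. Cells with 500 to 6000 genes and under 25% mitochondrial UMIs were kept. Genes starting with U, counted in the aged libraries alone (1.52 and 1.53% of their UMIs), were left out. Libraries were integrated with Seurat 5.3.0 (2000 variable features, resolution 0.5), with the members, pathway and cell cycle genes held out. A cluster took a class with at least 3 markers up by 0.5 (log2) and a mean marker score of at least 0.3 that led the next class by 0.3, unless markers of another class outnumbered its own among its 10 highest genes, or at least 3 of these were markers of non-endothelial or stromal cells, the stromal part being chosen after seeing the data. Doublets were marked by scrublet in scanpy 1.11.5 (1.734 to 6.069% of cells) and left out only in an alternative. Sums of at least 20 cells were tested with edgeR 4.0.16 (filterByExpr, TMM), p-values adjusted by Benjamini and Hochberg over all genes. Members, lists and tests were chosen with earlier results of these data known. Alternatives were other resolutions, no integration, a marker gate, stricter cell filters, DESeq2 1.42.0, RLE factors, no count filter, a replicate block and each library left out. Those with only clusters in which all markers were up, with total UMIs and for differences between classes without each library were added after seeing the data. Tested on simulated data, edgeR called 200 of 200 genes changed 3-fold in rECs against the other classes (12472 genes), 172 of 200 changed 2-fold in aged rECs (9992 genes) and 162 of 200 for the aged difference between rECs and bmECs (12614 genes), with 0, 5 and 9 unchanged genes called. In aged bmECs and over all aged ECs it called 200 of 200 changed 2-fold, with 12 and 5 unchanged genes called. The simulation gave all genes the same spread and libraries no effects of their own, and smaller changes, as most members showed, were not simulated.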

Additional observations from a re-analysis of the deposited data

Results flagged for a closer look

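Each of the following effects against adult differed from the same effect in bmECs by a test of the difference itself (edgeR's quasi-likelihood interaction, adjusted p under 0.05), and the values are log2 differences, negative where the class changed less or fell more than bmECs. For aged mice they were −0.43 for Flt4 and 0.41 for Nrp1 in mpECs. In aged aECs they were −0.21 for Flt1, −0.76 for Flt4, −0.23 for Kdr and −0.40 for Nrp2, and in aged rECs 0.29 for Flt1, −0.48 for Flt4, 0.56 for Kdr and 0.36 for Nrp1. After PTH they were 0.26 for Flt1 and 0.31 for Nrp1 in mpECs and −0.46 for Nrp1 in rECs. After alendronate they were −0.42 for Flt4 and −0.36 for Kdr in aECs. In juvenile mice Kdr gave 0.30 in aECs and −0.55 in rECs.

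The aged calls of Flt1 in aECs (−0.22 without adult replicate 1), Kdr in aECs (−0.21 without adult replicate 2), Flt1 in rECs (0.17 without adult replicate 1) and Flt4 in rECs (−0.25 without adult replicate 2 and −0.40 without aged replicate 2) each rested on single libraries. So did Flt1 in mpECs after PTH (0.20 to 0.26 without PTH replicate 2, adult replicate 2 or adult replicate 1). With total UMIs, the aged calls of Flt1 and Nrp1 in rECs were lost (0.11 and 0.17).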

How the results depend on the processing

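Of 420 values of a class against the others under the alternatives, 400 kept their direction and their side of the threshold. The 420 include each library left out and other settings that keep the classes as drawn. Except for Nrp1 with total UMIs, all values that changed came from the other ways of drawing the classes, so the share kept is smaller there. In aECs, Flt1 was −0.01 and Kdr −1.13 with only clusters in which all markers were up, and Flt4 −0.98 without integration. In bmECs, Flt1 was −0.78, −0.95, −0.96 and −0.97 (resolution 0.3, resolution 0.8, no integration, marker gate), Nrp1 −1.03, −1.06 and −1.02 (marker gate, all markers up, total UMIs) and Nrp2 1.05, 1.09 and 1.16 (resolution 0.3, marker gate, all markers up). In mpECs Nrp2 was 1.1, 1.01 and 1.24 (resolution 0.3, resolution 0.8, all markers up). In rECs Kdr was 0.04 and 0.09 (marker gate, all markers up) and Nrp2 0.32 and 0.38 (resolutions 0.3 and 0.8). Of 630 values of pairs of classes, 31 lost a call and 8 gained one. A further 13 turned direction, all of them under the other ways of drawing the classes. They were Kdr in aECs less rECs (−0.45, −0.47, −0.15, −0.71 and −0.92 at resolution 0.3, resolution 0.8, without integration, with the marker gate and with all markers up), Flt4 in the same pair (−0.14, marker gate, and −0.04, all markers up), Flt1 in mpECs less aECs (0.03, 0.1, 0.35, 0.13 and 0.17 in the order given for Kdr) and in mpECs less rECs (0.04, no integration). The called class tests numbered 9 with all markers up and 3 without integration, against 5.

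Among age and treatment effects the direction turned for aged aEC Flt4 (0.97 without integration, 0.08 with the marker gate), aged aEC Kdr (1.04 and 0.32), alendronate aEC Kdr (0.02, marker gate), aged Flt4 and Kdr over all ECs (0.12 and 0.23, total UMIs), and juvenile bmEC Flt1 and mpEC Flt4 (0.14 and −0.09, no integration). The cause was not tested. Aged mpECs could not be fitted without integration, since too few such cells remained. PTH calls numbered 7 of 20 at resolution 0.8, against 4. Alendronate calls numbered 2 (DESeq2), 2 (all markers up), 1 (marker gate), 3 (no integration), 2 (resolution 0.3) and 3 (resolution 0.8), against 5. Cells thinned to 2000 UMIs held both Kdr and Flt4 in 53.34% of bmECs, 34.31% of mpECs, 13.22% of aECs and 8.008% of rECs. With 1 library left out, calls of 20 ranged from 5 to 9 in juvenile, 16 to 17 in aged, 4 to 5 after PTH and 2 to 6 after alendronate mice, from 1 to 3 of 5 over all ECs after alendronate, and from 12 to 21 of 60 for differences between classes, a group of 1 library then being assumed to vary like the others.

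Same-numbered libraries did not deviate together over all genes kept (correlations of −0.03 to 0.05), which gave no sign of pairs. Counting error enters these correlations, so they cannot show that the numbers mark no pairs. With a replicate block 107 of 108 results kept their call, with 9, 17, 4 and 4 of 20 called in juvenile, aged, PTH and alendronate mice, and Nrp1 in alendronate mpECs lost its own (−0.15, adjusted p = 0.059). The number of rECs in the juvenile libraries (80 and 76) and PTH replicate 1 (153) limits the precision there.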

Other observations

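Cluster 16, left without a name, held 51 cells in which all 5 lymphatic markers were up, with Ccl21a and Lyve1 leading and haemoglobin genes also among its 10 highest. Its summed levels were 584 CPM for Flt4, 269 for Nrp2, 460.4 for Kdr, 82 for Flt1 and 68 for Nrp1. Cluster 14, also unnamed for the stromal genes among its leading ones, had 190 cells and medians over 6 libraries of 774.4 CPM for Kdr, 465.0 for Nrp1, 353.2 for Flt4, 291.1 for Flt1 and 151.2 for Nrp2. In 152 of the 206 mesenchymal cells that were removed, those of the 4 libraries with at least 20, Nrp2 read 217.8 to 425.5 CPM with a median of 290.8, and Flt4 a median of 23.42 CPM. Haematopoietic cells held 28.83 to 226.1 CPM of Kdr and 1.373 to 107.3 CPM of Flt4.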
